A study of Mus musculus with 16 samples.

Results

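The definitive endoderm factors described here are 9 mouse genes, Sox17, Foxa1, Foxa2, Foxa3, Gata4, Gata6, Hhex, Hnf4a and Cxcr4, out of 21887 protein-coding genes of build mm10. The genes were listed by name, and their chromatin was read from every peak that overlapped the gene or the 20 kb either side of it. A promoter peak is a peak within 1 kb of either end of the gene. The cells were CJ9, a mouse embryonic stem cell line, either arid4b-delta (labelled arid4b∆, a deletion in Arid4b, a gene for a subunit of the Sin3-HDAC corepressor) or wild type (WT), and all were directed to endoderm or to mesoderm for 5 days and fixed with 1% formaldehyde for 8 min. Each combination of genotype and lineage gave 1 ChIP-seq library per mark for H3K4me3, H3K27me3 and H3K27ac, hence 12 peak lists from the 16 samples, and the 4 input samples were not used here. It is not stated in the labels what portion of Arid4b is missing, whether the arid4b-delta line is 1 clone, or what the directed cultures contained besides the intended lineage. With 1 library per group there is no replicate error and no test between groups.

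Definitive endoderm is the germ layer that gives rise to the lining of the gut, the liver, the pancreas and the lungs, and it forms from mesendoderm under strong Nodal signalling. In stem cells and in early lineages the genes of such regulators are classic Polycomb targets: H3K27me3, laid down by Polycomb repressive complexes, spreads over the gene as a broad domain while H3K4me3 remains at the CpG-rich start, a combination called bivalent. When such a gene is switched on, H3K27me3 is usually lost and H3K27ac, the mark of active promoters and enhancers, appears.

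The lists differed in length between genotypes, so counts of marked genes are set here beside the share of all 21887 genes marked in the same list. The arid4b-delta and WT lists held 25272 and 22292 H3K4me3 peaks in endoderm, and 26852 and 21752 in mesoderm. For H3K27me3 they held 16660 and 10326 peaks in endoderm, and 9863 and 6150 in mesoderm. For H3K27ac they held 35884 and 14216 peaks in endoderm, and 22747 and 12496 in mesoderm. Read depth is unknown from peak lists, and the part that depth or antibody yield has in these differences was not tested. Fold enrichment is the authors' own value for each peak. It describes a peak or ranks it within its own list, and values of different lists are set side by side as descriptions, which show no change in level.

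Most of the endoderm factor genes carried H3K27me3 at a promoter in every library, and almost none carried H3K27ac there. H3K27me3 promoter peaks were found at 8 of 9 genes in arid4b-delta endoderm (17.2% of all genes), 6 of 9 in WT endoderm (14.4%), 7 of 9 in arid4b-delta mesoderm (16.3%) and 6 of 9 in WT mesoderm (9.34%). Sox17, Foxa1, Foxa2, Gata6, Hhex and Cxcr4 were the 6 genes marked in all 4 lists. H3K4me3 promoter peaks were found at 6 genes in arid4b-delta endoderm (58.6%), 5 in WT endoderm (53.3%), 6 in arid4b-delta mesoderm (59.7%) and 6 in WT mesoderm (55.9%), which is close to the share of all genes. H3K27ac promoter peaks were found at 0 of 9 genes in arid4b-delta endoderm (26.4%), 0 in WT endoderm (26.6%), 0 in arid4b-delta mesoderm (31.5%) and 1 in WT mesoderm (29.6%), the last being Foxa3. Thus neither endoderm-directed culture had H3K27ac within 1 kb of an end of any of these genes, and no expression values are part of these files.

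**Figure D1:**
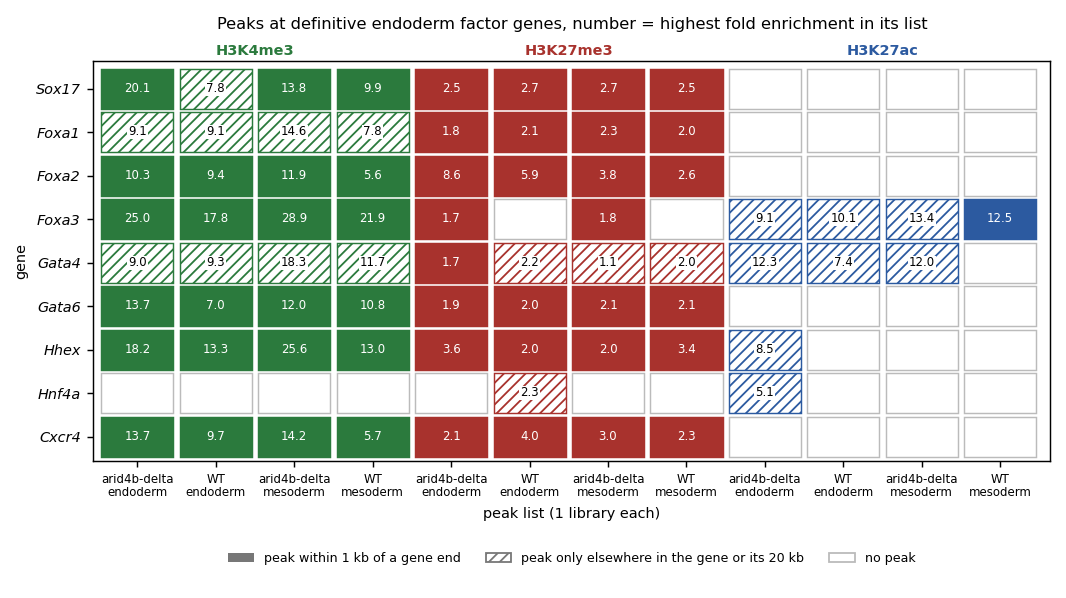
Each square is 1 gene in 1 peak list, with 1 library per column. Filled squares have a peak within 1 kb of a gene end, hatched squares have a peak only elsewhere in the gene or the 20 kb either side, and the number is the authors' highest fold enrichment there. Red squares run through Sox17, Foxa1, Foxa2, Gata6, Hhex and Cxcr4 in all 4 H3K27me3 lists, and the only filled H3K27ac square is Foxa3 in WT mesoderm.

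Over the wider neighbourhood the same contrast between marks was seen. A peak in the gene or the 20 kb either side was found for H3K4me3 at 8 genes in each of the 4 lists, against 72.7%, 67.8%, 73.9% and 69.7% of all genes in arid4b-delta endoderm, WT endoderm, arid4b-delta mesoderm and WT mesoderm. For H3K27me3 the counts in that order were 8, 8, 8 and 7 genes, against 41.1%, 31.7%, 32.6% and 20.9%. For H3K27ac they were 4, 2, 2 and 1 genes, against 58.7%, 46.1%, 55.7% and 47.6%.

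H3K4me3 and H3K27me3 mostly coincided at these genes, as they did over all genes with H3K27me3. Both marks had promoter peaks at 6 genes in arid4b-delta endoderm (14.2% of all genes), 4 in WT endoderm (10.1%), 6 in arid4b-delta mesoderm (14.2%) and 5 in WT mesoderm (7.64%). In the 50% of peaks with the highest fold enrichment the counts were 3, 2, 3 and 2. In the full lists, of all genes with promoter H3K27me3, 3109 of 3773, 2211 of 3152, 3106 of 3567 and 1672 of 2044 also had promoter H3K4me3. For the endoderm factors this was 6 of 8, 4 of 6, 6 of 7 and 5 of 6. The coincidence is therefore not particular to them. An H3K4me3 peak overlapped an H3K27me3 peak somewhere in the neighbourhood of 8 genes in arid4b-delta endoderm (23.1%), 7 in WT endoderm (17.0%), 8 in arid4b-delta mesoderm (23.3%) and 7 in WT mesoderm (12.8%). At Foxa1 every H3K4me3 peak lay wholly inside an H3K27me3 peak, namely 7 of 7 in arid4b-delta endoderm, 2 of 2 in WT endoderm, 8 of 8 in arid4b-delta mesoderm and 4 of 4 in WT mesoderm. The 2 marks come from separate libraries, so whether they sit on the same chromosomes or in different cells cannot be told apart.

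The promoter sequences at the annotated starts were read for their CpG content. RefSeq promoter sequences of build GRCm38.p6, which is mm10, cover 250 bases before to 50 after a start, and 6 of the 9 genes matched with 9 starts in all. 6 windows are shown, with CpG dinucleotides in capitals: Foxa1 (minus strand, chr12:57546062-57546361), the Foxa2 start whose window held H3K4me3 in every library (minus strand, chr2:148045899-148046198), Foxa3 (minus strand, chr7:19023490-19023789), Hhex (plus strand, chr19:37434591-37434890), Cxcr4 (minus strand, chr1:128592250-128592549) and, as the gene without H3K4me3, the first Hnf4a start (plus strand, chr2:163506607-163506906).
Foxa1: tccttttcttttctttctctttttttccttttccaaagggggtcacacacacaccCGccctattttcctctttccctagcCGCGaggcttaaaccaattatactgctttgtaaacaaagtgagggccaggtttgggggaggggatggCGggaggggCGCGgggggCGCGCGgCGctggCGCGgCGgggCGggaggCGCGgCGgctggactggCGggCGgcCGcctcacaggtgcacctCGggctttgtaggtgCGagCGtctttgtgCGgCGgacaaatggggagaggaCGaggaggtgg
Foxa2: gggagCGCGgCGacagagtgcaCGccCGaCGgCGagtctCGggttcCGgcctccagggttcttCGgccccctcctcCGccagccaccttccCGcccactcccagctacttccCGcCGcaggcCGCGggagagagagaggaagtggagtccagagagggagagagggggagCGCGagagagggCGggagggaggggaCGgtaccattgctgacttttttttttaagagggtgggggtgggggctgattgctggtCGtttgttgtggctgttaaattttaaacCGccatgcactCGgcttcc
Foxa3: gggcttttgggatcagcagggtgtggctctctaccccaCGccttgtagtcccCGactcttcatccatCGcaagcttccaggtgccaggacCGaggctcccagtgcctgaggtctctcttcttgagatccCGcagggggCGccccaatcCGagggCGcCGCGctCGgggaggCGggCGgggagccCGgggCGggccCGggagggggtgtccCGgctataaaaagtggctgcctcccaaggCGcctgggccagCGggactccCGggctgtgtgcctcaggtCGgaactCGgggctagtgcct
Hhex: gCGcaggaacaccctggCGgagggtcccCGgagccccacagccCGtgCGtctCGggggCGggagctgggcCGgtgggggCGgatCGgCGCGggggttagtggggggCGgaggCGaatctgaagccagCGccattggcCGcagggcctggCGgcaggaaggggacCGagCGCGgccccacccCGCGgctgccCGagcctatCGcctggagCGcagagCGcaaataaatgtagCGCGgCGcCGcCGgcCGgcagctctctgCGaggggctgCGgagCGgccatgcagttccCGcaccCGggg
Cxcr4: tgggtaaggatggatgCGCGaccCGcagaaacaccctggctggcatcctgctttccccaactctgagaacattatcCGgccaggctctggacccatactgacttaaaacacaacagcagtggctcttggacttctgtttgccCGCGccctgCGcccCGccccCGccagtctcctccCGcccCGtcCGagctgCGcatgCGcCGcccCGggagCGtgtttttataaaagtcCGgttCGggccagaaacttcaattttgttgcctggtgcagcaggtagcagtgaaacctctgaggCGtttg
Hnf4a: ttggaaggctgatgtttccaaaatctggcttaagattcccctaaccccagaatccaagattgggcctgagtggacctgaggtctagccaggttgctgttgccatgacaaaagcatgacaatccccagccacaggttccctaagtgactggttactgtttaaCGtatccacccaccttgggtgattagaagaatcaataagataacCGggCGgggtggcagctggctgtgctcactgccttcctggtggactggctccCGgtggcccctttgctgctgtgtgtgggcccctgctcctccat

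Hhex had the most CpGs of these windows, 37 in 300 bases, which is at percentile 92.7 of the 21263 windows of 17492 genes in the table. Foxa1 had 26, this Foxa2 start 23, Foxa3 22, Cxcr4 20 and Hnf4a 4, against a median of 13 over all windows with quartiles of 4 and 24. The other Foxa2 starts had 13 and 12 CpGs and the other Hnf4a start had 4. The Foxa2 window with 13 CpGs held H3K27me3 in every library and H3K4me3 in all but WT mesoderm. The Foxa2 window with 12 held H3K27me3 in every library and H3K4me3 in arid4b-delta mesoderm alone. Windows overlapped by peaks of both H3K4me3 and H3K27me3 had a median of 26 CpGs in arid4b-delta endoderm, 29 in WT endoderm, 26 in arid4b-delta mesoderm and 29 in WT mesoderm. Windows with H3K4me3 alone had medians of 22, 23, 22 and 23 in the same order, and those with H3K27me3 alone 10, 17, 9 and 13. Windows overlapped by neither mark had medians of 3, 4, 3 and 3, so Hnf4a, with no peak over its windows in any list, lies near the unmarked windows. Hhex lies above all 4 medians of the bivalent windows, and Foxa1 lies at the arid4b-delta medians and below the WT medians. The Foxa2, Foxa3 and Cxcr4 windows lie below all 4 bivalent medians. The Foxa3 window held H3K27me3 in arid4b-delta endoderm alone, and the Cxcr4 window in WT endoderm alone. The Foxa2 window with 23 CpGs held H3K27me3 in every library but WT mesoderm.

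**Figure D2:**
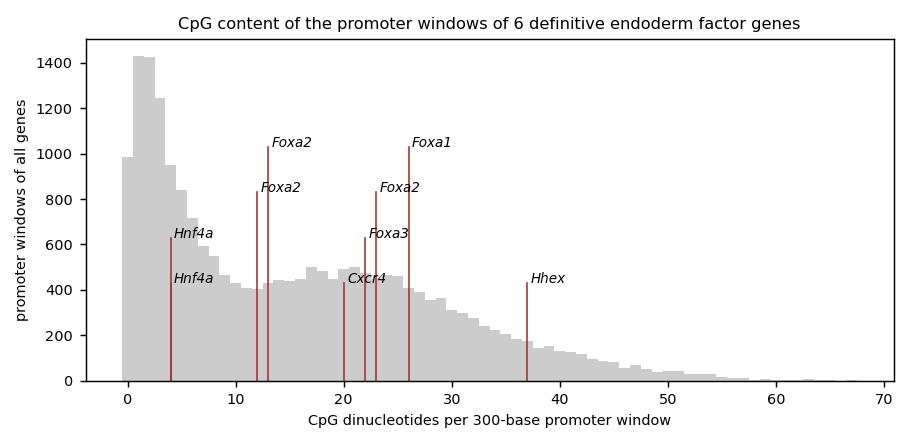
The grey bars count the 300-base promoter windows of all genes by their number of CpG dinucleotides, and red lines place the 9 windows of 6 endoderm factor genes. Hnf4a stands at 4 CpGs among the CpG-poor windows, and Hhex stands at 37 in the upper tail.

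Binding motifs of the factors themselves were searched on both strands of these windows as plain letters. GATAA, the core of GATA sites, was present in the Cxcr4 window and the first Hnf4a window, and in the Foxa2 window chr2:148045415-148045714, and 22.5% of all windows hold it. TGTTTAC, a forkhead motif, was present 1 time in the Foxa1 window and in no other of the 9, and 3.01% of all windows hold it. TGTTTGC, another forkhead motif, was present 1 time in the Cxcr4 window (4.58% of all windows). ACAAAG, the core of SOX sites, was present 4 times in the Foxa1 window and 2 times in the same second Foxa2 window (16.8%). GGGCGG, the GC box, was present 3 times in each of the Foxa1, Hhex and Cxcr4 windows, 1 or 2 times in the other windows of the genes with H3K4me3 and in the first Hnf4a window, and 0 times in the other Hnf4a window (46.2%). CCAAT was present 1 time in each of the Foxa1, Foxa3 and Hhex windows, both Hnf4a windows and the Foxa2 window chr2:148046920-148047219 (38.2%). TATAAA, the TATA box, was present 2 times in the Cxcr4 window and 1 time in each of the Foxa3 window and the Foxa2 window chr2:148045415-148045714 (12.6%). These are matches of letters only.

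Sox17, an HMG-box factor that specifies definitive endoderm (gene 20671, chromosome 1, 4490928 to 4497426), lay under H3K27me3 in all 4 libraries. The longest H3K27me3 peak was 12222 bp in arid4b-delta endoderm, 9865 bp in WT endoderm, 13120 bp in arid4b-delta mesoderm and 3779 bp in WT mesoderm, where 3 shorter peaks covered 7539 bp together. The domain was thus longest in the arid4b-delta lists and broken in the WT mesoderm list. H3K4me3 over Sox17 was highest at fold enrichments of 20.1, 7.75, 13.8 and 9.87 in arid4b-delta endoderm, WT endoderm, arid4b-delta mesoderm and WT mesoderm, and covered 2863, 1072, 3732 and 1961 bp. The fewest base pairs of H3K4me3 were thus called in WT endoderm.

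Sox17 was the only endoderm factor with an H3K4me3 promoter peak in arid4b-delta endoderm and not in WT endoderm, while 5.37% of all genes were marked in arid4b-delta only, against 0.101% for WT only. No annotated start or strand was available for Sox17, so which end holds its start cannot be told. The arid4b-delta peaks ran from 4491794 to 4493979 near the lower end of the gene and from 4497103 to 4497487 over its upper end. Another, from 4496340 to 4496631, lay inside the gene near the upper end. The WT peaks ran from 4492275 to 4492603 and from 4492874 to 4493616, inside the gene but farther than 1 kb from its ends. With a window of 2500 bp Sox17 was marked in both genotypes, so this call depends on the window. Between lineages, Sox17 was the only one of these genes with an H3K4me3 promoter peak in WT mesoderm and not in WT endoderm (3.15% of all genes). The WT mesoderm call came from 1 peak, 989 bp inside the lower end. This difference too ended with a window of 500 or 2500 bp.

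Foxa1, Foxa2 and Foxa3 encode forkhead factors that open closed chromatin and act in gut tube, liver and pancreas. Foxa1 (gene 15375, chromosome 12, 57540628 to 57548029, minus strand, annotated start 57546111) had the longest H3K27me3 peak of the 9 genes. Its longest peak was 21878 bp in arid4b-delta endoderm, 20564 bp in WT endoderm, 22403 bp in arid4b-delta mesoderm and 9625 bp in WT mesoderm, which placed it among the longest 0.282%, 0.378%, 0.355% and 0.715% of its lists. By fold enrichment the same peaks were ordinary, at 1.79, 2.01, 2.28 and 1.91, inside the upper 64.4%, 57.9%, 52.0% and 57.5% of their lists. The Foxa1 domain thus stood out by its length and not by its height, and in arid4b-delta endoderm it fell out of the list when the lists were matched in number of peaks by fold enrichment.

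The H3K4me3 peaks of Foxa1 did not reach within 1 kb of either gene end, because the annotated start lies inside the gene model. Counted at the annotated start instead, Foxa1 had H3K4me3 in all 4 libraries. Sox17, Gata4 and Gata6 have no annotated start here and were still counted at their gene ends, as was any other such gene. The genes with H3K4me3 became 7, 6, 7 and 7 of 9 in arid4b-delta endoderm, WT endoderm, arid4b-delta mesoderm and WT mesoderm. The shares of all genes were 60.2%, 55.2%, 61.2% and 57.7%. Genes with both H3K4me3 and H3K27me3 by this count became 7, 5, 7 and 6, against 14.4%, 10.4%, 14.4% and 7.85%. The end of Ttc6, a neighbouring gene, lies within 1 kb of several of these peaks, so they may belong to either gene. Foxa1 had 7 H3K4me3 peaks covering 2726 bp in arid4b-delta endoderm, 2 covering 602 bp in WT endoderm, 8 covering 4039 bp in arid4b-delta mesoderm and 4 covering 1122 bp in WT mesoderm. More base pairs were covered in arid4b-delta in both lineages.

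Foxa2 (gene 15376, chromosome 2, 148042877 to 148046969, minus strand, 3 annotated starts) had H3K4me3 and H3K27me3 promoter peaks in all 4 libraries. H3K27me3 covered 21248 bp in arid4b-delta endoderm, 15336 bp in WT endoderm, 18423 bp in arid4b-delta mesoderm and 10832 bp in WT mesoderm. The peak over the gene was 17152 bp, 13813 bp and 16912 bp long in the first 3 of these, and in WT mesoderm the longest of 6 peaks had 4706 bp. Foxa2 was also higher within its lists than Foxa1, with that peak in the upper 22.4% by fold enrichment in arid4b-delta endoderm, 19.3% in WT endoderm and 22.6% in arid4b-delta mesoderm. A short peak of 199 bp, 10953 bp from the gene, had a fold enrichment of 8.64 in arid4b-delta endoderm and stood in the upper 0.114% of its list.

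H3K4me3 at Foxa2 came as a row of short peaks across the gene, 6 in arid4b-delta endoderm, 6 in WT endoderm, 7 in arid4b-delta mesoderm and 3 in WT mesoderm. They covered 2056, 2531, 2755 and 599 bp in that order. In endoderm Foxa2 was the only one of the 8 genes with H3K4me3 that was covered less in arid4b-delta than in WT, while 99.2% of all genes with peaks in both genotypes were covered more. The sign in mesoderm was the opposite, as it was for H3K4me3 at 3.04% of all genes with a peak in both lineages.

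**Figure D3:**
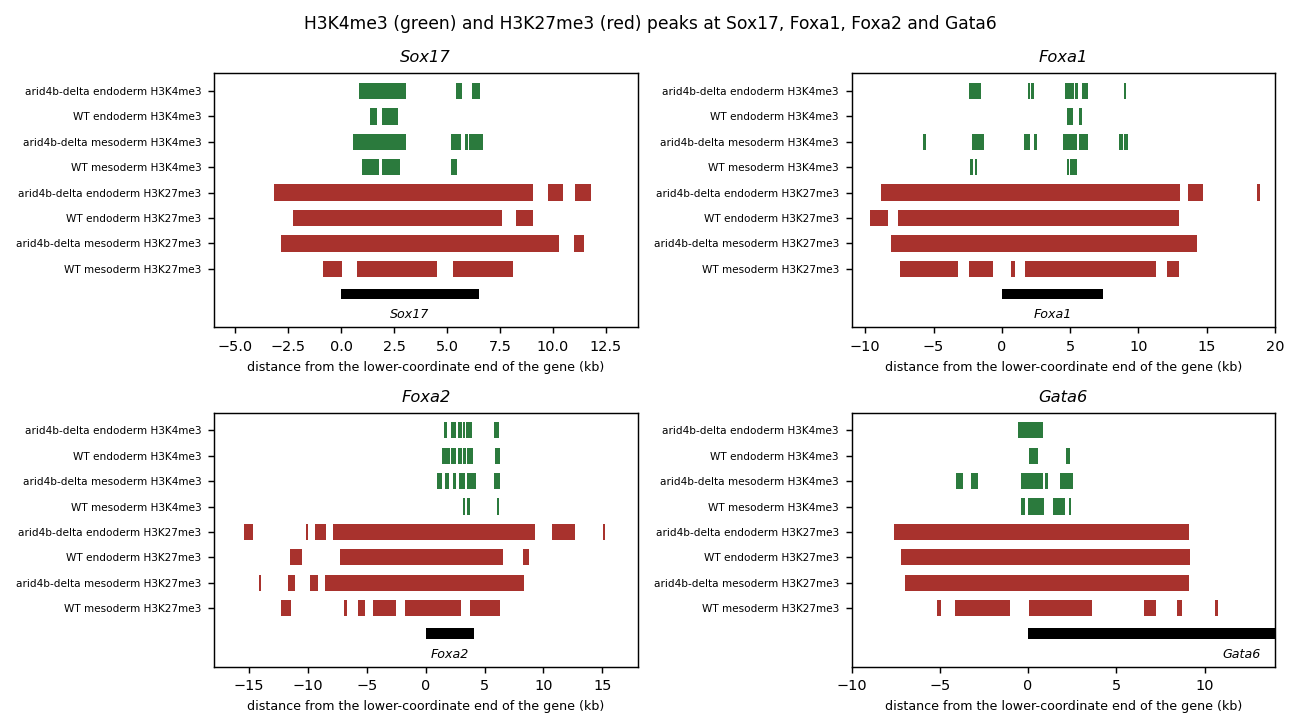
H3K4me3 peaks in green and H3K27me3 peaks in red are drawn at Sox17, Foxa1, Foxa2 and Gata6, 1 row per library, against distance in kb from the lower-coordinate end of the gene (black bar), and very short peaks are widened to stay visible. The bar of Gata6 runs on past the right edge. 1 long red peak covers the green peaks in arid4b-delta endoderm, WT endoderm and arid4b-delta mesoderm at most places, and in WT mesoderm the red peaks form 3 to 6 shorter pieces over much the same stretch.

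Foxa3 (gene 15377, chromosome 7, 19013283 to 19023539, minus strand, start 19023539) differed from the other forkhead genes in lying between marked neighbours. Its H3K4me3 promoter peaks had highest fold enrichments of 25.0 in arid4b-delta endoderm, 17.8 in WT endoderm, 28.9 in arid4b-delta mesoderm and 21.9 in WT mesoderm, which were the highest of the 9 genes in each list. These strongest peaks overlapped the end of Sympk, a polyadenylation factor gene that starts close by, and the part of the signal that belongs to Foxa3 cannot be told apart from it. At the Foxa3 start itself, separate peaks were weaker, such as 10.5 in arid4b-delta endoderm (19023232 to 19023638), 4.82 in WT endoderm (19023383 to 19023528) and 4.11 in WT mesoderm (19023420 to 19023768), while in arid4b-delta mesoderm 1 peak spanned both genes.

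H3K27me3 at the Foxa3 start was found in arid4b-delta in both lineages and not in WT. The peak was 812 bp long with a fold enrichment of 1.68 in arid4b-delta endoderm (19023271 to 19024082), and 770 bp long with a fold enrichment of 1.76 in arid4b-delta mesoderm (19022708 to 19023477). No H3K27me3 peak lay in the gene or the 20 kb either side in either WT list. A neighbourhood marked by H3K27me3 in arid4b-delta and not in WT was found at 14.5% of all genes in endoderm and 14.3% in mesoderm, and the reverse at 5.17% and 2.65%. These were low peaks, inside the upper 72.6% and 81.3% of their lists by fold enrichment, and both were lost when the lists were matched in number of peaks.

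H3K27ac around Foxa3 lay mainly near the end of the neighbouring gene Irf2bp1, where all 4 lists had peaks. Only WT mesoderm had H3K27ac within 1 kb of a Foxa3 end, at 19012173 to 19012393 (fold enrichment 5.13, 890 bp beyond the lower end) and at 19024470 to 19024631 (5.16, 931 bp beyond the start). The second of these was 93 bp from the end of Sympk. Neither was within 500 bp of Foxa3, and of all genes 5.62% had mesoderm H3K27ac promoter peaks in arid4b-delta only, against 3.71% for WT only. Base pairs covered by H3K27ac round Foxa3 were 664 in arid4b-delta endoderm, 605 in WT endoderm, 653 in arid4b-delta mesoderm and 1427 in WT mesoderm, so the genotypes differed in opposite directions in the 2 lineages, as at 40.8% of the 11747 genes with H3K27ac peaks in both lineages.

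The GATA factors are zinc finger proteins of the mesendoderm, used again in the heart and the gut. Gata4 (gene 14463, chromosome 14, 63198914 to 63271712) had its longest H3K27me3 peaks and its strongest H3K4me3 peaks inside the gene, while all its H3K27ac peaks lay in the flanks. H3K4me3 was found near the middle of the gene in all 4 libraries, at 63244910 to 63246077 in arid4b-delta endoderm (fold enrichment 9.02), 63244930 to 63245971 in WT endoderm (9.34), 63244580 to 63245985 in arid4b-delta mesoderm (18.3) and 63244561 to 63246075 in WT mesoderm (11.7). No annotated start or strand was available for Gata4, so whether these H3K4me3 peaks lie at its start cannot be told. Each of them overlapped an H3K27me3 peak of the same genotype and lineage. H3K27me3 covered 20196 bp in arid4b-delta endoderm, 16045 bp in WT endoderm, 14150 bp in arid4b-delta mesoderm and 2191 bp in WT mesoderm. The WT mesoderm list thus had the least over Gata4, with a longest peak of 1028 bp.

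The long Gata4 peaks were low. The peak of 14150 bp in arid4b-delta mesoderm had a fold enrichment of 1.12 and lay at 99.2% of its list by height. The promoter call at Gata4 in arid4b-delta endoderm came from 1 peak of 146 bp, the shortest length in the list, at 63272074 to 63272219 with a fold enrichment of 1.67. It made Gata4, with Foxa3, 1 of 2 genes with an endoderm H3K27me3 promoter peak in arid4b-delta only, against 4.89% of all genes, with 2.05% in WT only. It also made Gata4 the only one of the 9 genes with an H3K27me3 promoter peak in arid4b-delta endoderm and not in arid4b-delta mesoderm (3.31% of all genes). The call ended with lists matched in number of peaks and with peaks of at least 500 bp.

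Past the upper end of Gata4, H3K27ac and H3K27me3 were called at the same place in different libraries. H3K27ac peaks lay at 63280314 to 63280668 in arid4b-delta endoderm (fold enrichment 6.24) and at 63280325 to 63280589 in arid4b-delta mesoderm (5.11). H3K27me3 peaks lay at 63280164 to 63280534 in WT endoderm (1.56) and at 63280274 to 63280601 in WT mesoderm (2.0). The arid4b-delta endoderm list also had H3K27me3 from 63280468 to 63281115 (1.5), overlapping its own H3K27ac peak. The H3K27ac peaks on the other side of Gata4, below its lower end, lay within 1 kb of the end of Neil2, a DNA glycosylase gene. Gata4 was the only gene whose neighbourhood had mesoderm H3K27ac in the arid4b-delta list and in no WT mesoderm peak (12.2% of all genes, with 4.13% in WT only).

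**Figure D4:**
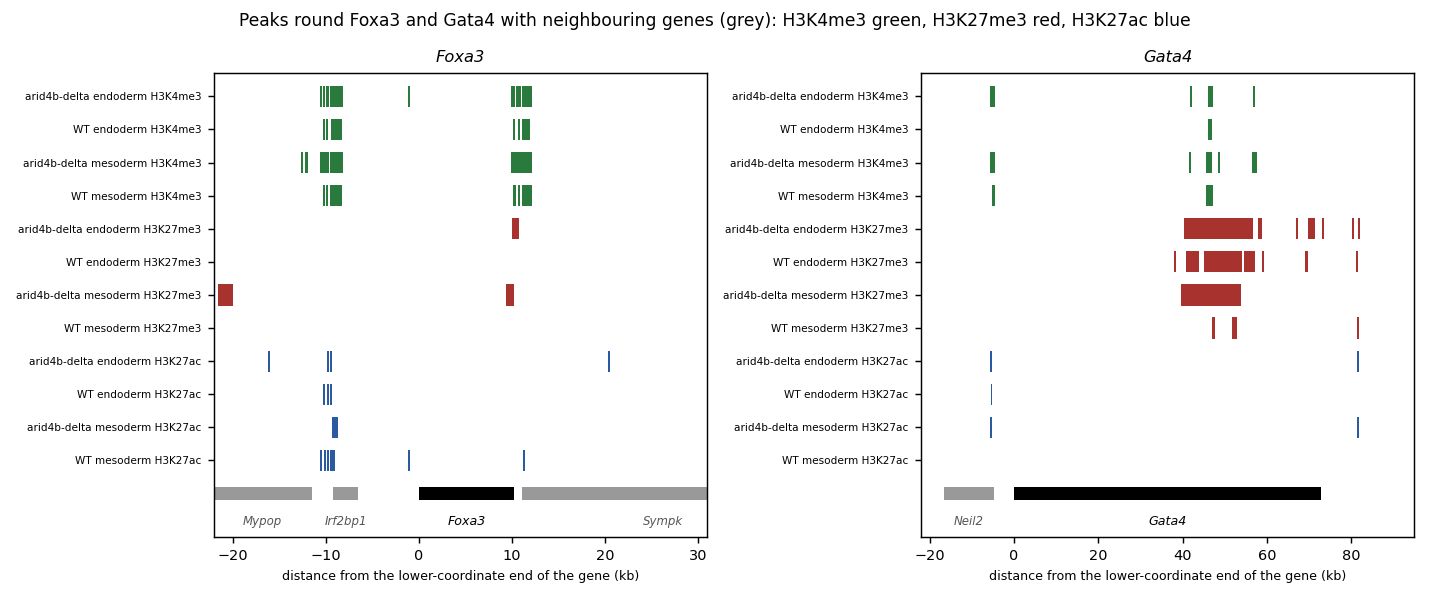
Peaks of the 12 lists are drawn round Foxa3 and Gata4 (black bars) with neighbouring genes in grey, against distance in kb from the lower-coordinate end of the gene, and very short peaks are widened to stay visible. The green and blue peaks at Foxa3 cluster at Irf2bp1 and Sympk, the red peaks at the Foxa3 start appear in the arid4b-delta rows alone, and at Gata4 the long red blocks and a green peak found in every library lie inside the gene.

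Gata6 (gene 14465, chromosome 18, 11052510 to 11085636) had H3K4me3 at its lower end inside a long H3K27me3 peak. That domain was 1 peak of 16728 bp in arid4b-delta endoderm, 16379 bp in WT endoderm and 16063 bp in arid4b-delta mesoderm. In WT mesoderm 6 peaks spread over 15886 bp and covered 8086 bp of it, or 50.9%, so nearly the same stretch was called with gaps. H3K4me3 covered 1404 bp in arid4b-delta endoderm, 754 bp in WT endoderm, 2918 bp in arid4b-delta mesoderm and 2020 bp in WT mesoderm. The antisense gene Gata6os shares this end, and peaks do not say to which gene they belong.

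Hhex, a homeobox factor of the anterior endoderm and the liver bud (gene 15242, chromosome 19, 37434841 to 37440731, plus strand), had 1 H3K4me3 peak over its start in every library. The peak was 1630 bp with a fold enrichment of 18.2 in arid4b-delta endoderm, 1420 bp with 13.3 in WT endoderm, 1733 bp with 25.6 in arid4b-delta mesoderm and 1457 bp with 13.0 in WT mesoderm. This start is the most CpG-rich of the windows printed above. H3K27me3 covered 7132 bp in arid4b-delta endoderm, 4231 bp in WT endoderm, 5632 bp in arid4b-delta mesoderm and 1648 bp in WT mesoderm. In WT mesoderm the H3K27me3 peak was short but ranked in the upper 2.39% of its list by fold enrichment, at 3.39.

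Hhex had H3K27ac in arid4b-delta endoderm alone, at 37445085 to 37445239, which is 4354 bp beyond its upper end, with a fold enrichment of 8.47. The H3K27me3 library of the same cells had a peak there too, from 37444500 to 37445299 with a fold enrichment of 3.60. The neighbourhood of Hhex and that of Hnf4a were the 2 with endoderm H3K27ac in arid4b-delta only, against 17.5% of all genes, with 4.88% in WT only.

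Hnf4a, a nuclear receptor of liver and gut that comes on late in the definitive endoderm (gene 15378, chromosome 2, 163506811 to 163572907, plus strand, starts 163506857 and 163547155), was almost without peaks. H3K4me3 was not called in its neighbourhood in any list. H3K27me3 was called in WT endoderm alone, at 163520297 to 163520941 with a fold enrichment of 2.29, which made it the 1 gene of 9 whose neighbourhood had endoderm H3K27me3 in WT only (5.17% of all genes). H3K27ac was called in arid4b-delta endoderm alone, as 2 peaks of 146 bp at 163523554 to 163523699 (4.54) and 163523953 to 163524098 (5.10). Hnf4a shares the state of having no promoter peak in any of the 12 lists with 7842 other genes.

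Cxcr4, the receptor of the chemokine Cxcl12 and a surface marker of definitive endoderm that mesoderm carries as well (gene 12767, chromosome 1, 128588199 to 128592299, minus strand), had a short bivalent region. H3K4me3 over its start had highest fold enrichments of 13.7 in arid4b-delta endoderm, 9.73 in WT endoderm, 14.2 in arid4b-delta mesoderm and 5.72 in WT mesoderm. H3K27me3 covered 2902 bp in arid4b-delta endoderm, 3146 bp in WT endoderm, 3304 bp in arid4b-delta mesoderm and 952 bp in WT mesoderm. Cxcr4 was the only one of the 7 genes with H3K27me3 in both genotypes that was covered less in arid4b-delta endoderm than in WT endoderm, with the opposite sign in mesoderm, as at 20.5% of the 6728 genes with H3K27me3 peaks in both lineages. Its longest H3K27me3 peak lay over the gene body, and the H3K4me3 peak at the start extended past it in every library. WT endoderm had a second H3K27me3 peak of 441 bp at 128592892 to 128593332, which is 593 bp beyond the start and past the end of the H3K4me3 peak of the same cells.

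Set side by side, the genotypes differed in how much of these genes H3K27me3 covered. In mesoderm all 7 genes with peaks in both genotypes were covered more in arid4b-delta than in WT, and in endoderm 6 of 7 were. With lists matched in number of peaks by fold enrichment, arid4b-delta had more at 4 such genes and WT at 1 in endoderm. In mesoderm the counts were 5 and 0. In the 50% of peaks with the highest fold enrichment they were 2 and 1 in endoderm, and 3 and 0 in mesoderm. With the longer list cut to its longest peaks they were 6 and 1, and 7 and 0. A second count took a gene without a peak at 0 bp. It gave 7 and 2 in endoderm and 8 and 0 in mesoderm in the full lists. With lists matched by fold enrichment it gave 4 and 4 in endoderm, and 5 and 2 in mesoderm. In the 50% of peaks with the highest fold enrichment it gave 3 and 3 in each lineage. The full-list shares of 7 of 7 and 6 of 7 are near those of all genes with peaks in both genotypes, 91.4% in mesoderm and 81.0% in endoderm. The median ratio of base pairs covered, arid4b-delta over WT, was 1.99 for the endoderm factors and 2.33 for all such genes in mesoderm, and 1.26 against 1.46 in endoderm. The larger coverage in arid4b-delta in the full lists is therefore shared with the genome at large.

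**Figure D5:**
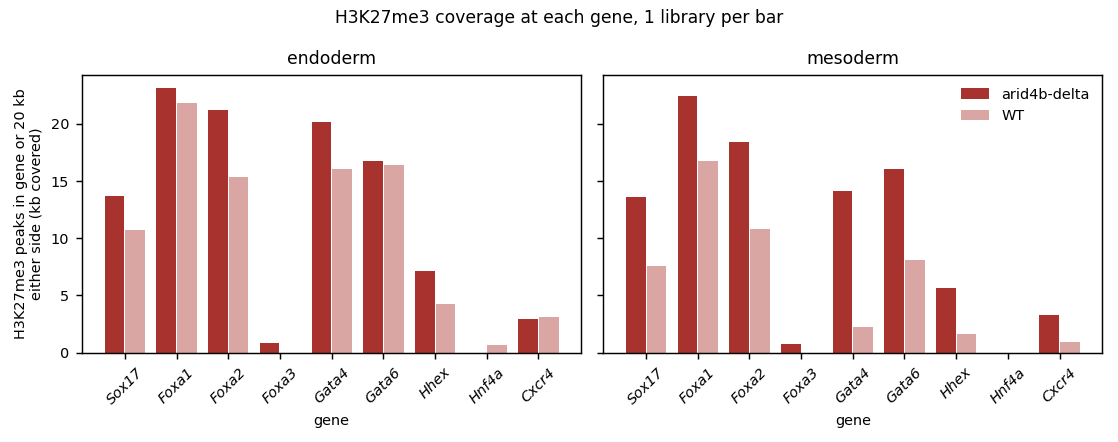
Bars give the kb covered by H3K27me3 peaks in each gene and the 20 kb either side, arid4b-delta dark and WT light, with 1 library per bar and no error. In mesoderm the dark bar is higher at each of the 7 genes marked in both genotypes, with 22403 bp against 16795 bp at Foxa1 and 3304 bp against 952 bp at Cxcr4, and in endoderm the bars are closer.

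Long H3K27me3 coverage was more frequent at these genes than over all genes. The cut of 10000 bp was not among the measures planned beforehand. The shares are of all genes, with or without an H3K27me3 peak, and are not scaled for gene length. At least 10000 bp was covered at 5 of 9 genes in arid4b-delta endoderm (2.83% of all genes), 5 in WT endoderm (1.85%), 5 in arid4b-delta mesoderm (2.52%) and 2 in WT mesoderm (0.914%). The 5 were Sox17, Foxa1, Foxa2, Gata4 and Gata6, and the 2 were Foxa1 and Foxa2. In the 50% of peaks with the highest fold enrichment the counts were 2, 2, 2 and 0 in the same order. At the same 5 genes the mesoderm H3K27me3 lists had fewer peaks but more base pairs in arid4b-delta than in WT, a pattern seen at 15.8% of all genes with peaks in both. This measure was chosen after the values were seen. In endoderm none of the 7 genes showed it (11.5% of all genes).

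H3K4me3 coverage was also larger in arid4b-delta, at 7 of 8 genes in endoderm and at all 8 in mesoderm (97.5% of all genes with peaks in both genotypes). In the 50% of peaks with the highest fold enrichment this held for 3 genes in endoderm and 5 in mesoderm, with 0 covered more in WT in either. The median ratio was 1.72 in endoderm for the endoderm factors and 1.56 for all genes, and 1.62 and 1.36 in mesoderm. No endoderm factor had an H3K4me3 promoter peak in WT only in either lineage, and in mesoderm none had one in arid4b-delta only either (3.92% of all genes, against 0.119% for WT). Of mesoderm H3K27me3 promoters, Foxa3 alone was marked in arid4b-delta only (7.68% of all genes, with 0.726% in WT only).

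Few promoters were marked in 1 lineage of a genotype only, at these genes as over all genes. For H3K4me3, 0 genes were marked in endoderm only in arid4b-delta (0.338% of all genes) and in WT (0.548%), and 0 in mesoderm only in arid4b-delta (1.48%), next to Sox17 in WT. For H3K27me3, 0 genes were marked in mesoderm only in arid4b-delta (2.37%), and in WT 0 in endoderm only (6.08%) and 0 in mesoderm only (1.01%), next to Gata4 in arid4b-delta. For H3K27ac, 0 genes were marked in endoderm only in arid4b-delta (2.36%) and in WT (3.39%), and in mesoderm only 0 in arid4b-delta (7.43%) and Foxa3 in WT (6.36%). In endoderm, 0 genes had promoter H3K27ac in either genotype alone (4.49% of all genes in arid4b-delta only, against 4.7% for WT only). The lineages differed more in the 50% of peaks with the highest fold enrichment. There WT had 2 genes with H3K4me3 in endoderm only and 2 with H3K27me3 in mesoderm only, and arid4b-delta had 1 with H3K4me3 in mesoderm only.

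Between lineages within a genotype, H3K27me3 covered more in endoderm than in mesoderm at most of these genes. In arid4b-delta this held for 7 of 8 genes (64.0% of all genes with peaks in both lineages), with Cxcr4 as the exception. In WT it held for 7 of 7 (86.5%). In the 50% of peaks with the highest fold enrichment, arid4b-delta had more in endoderm at 1 gene and in mesoderm at 2, and WT had more in endoderm at 4. H3K4me3 covered less in endoderm than in mesoderm at all 8 genes in arid4b-delta and at 7 of 8 in WT, Foxa2 being covered more, while more in endoderm was found at 19.1% and 10.6% of all genes. In the full lists, endoderm-directed cells of both genotypes thus had more base pairs of most endoderm factor genes called as H3K27me3 than mesoderm-directed cells. The same held for most of all genes with peaks in both lineages, and the endoderm H3K27me3 lists were also the longer ones.

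Genes with the same promoter state in all 12 lists were common. Foxa2, Gata6, Hhex and Cxcr4 shared 1 state, H3K4me3 and H3K27me3 in every list and no H3K27ac. Each of them had 999 other genes in that state, the rest of this group included. Sox17 shared its state with 263 genes, Gata4 with 155, Foxa1 with 86 and Foxa3 with 20. By distance over the 12 values of log2(1 + highest promoter fold enrichment), the gene nearest to Sox17 was Ptpn5 (0.57), to Foxa1 Zfp541 (0.11), to Foxa2 Shank2 (0.36), to Gata6 Hspa1a (0.29) and to Hhex Gadd45b (0.65). Gata4 has a promoter peak in 1 list only, and its nearest gene, Krtap5-4, had a distance that rounds to 0. The gene nearest to Foxa3 was Sympk, at distance 0, since the highest promoter peaks of both are the same peaks.

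Promoter marks were also read at other genes of the endoderm programme. Of 15 later endoderm genes, such as Pdx1, Cdx2, Alb and Afp, H3K27ac lay at 0 in arid4b-delta endoderm, 0 in WT endoderm, 0 in arid4b-delta mesoderm and 1 in WT mesoderm, the last being Cdx2. H3K27me3 lay at 9, 8, 9 and 8, and Alb and Afp had neither mark in any list. The shares of all genes in that order were 26.4%, 26.6%, 31.5% and 29.6% for promoter H3K27ac. For promoter H3K27me3 they were 17.2%, 14.4%, 16.3% and 9.34%. Of 15 inducers and mesendoderm genes, H3K27ac lay at 7, 8, 7 and 5 in the same order, with Gsc (fold enrichment 4.56) in WT endoderm only. In mesoderm the inducers Otx2 (12.9), Tdgf1 (10.7) and Nodal (6.35) had H3K27ac in arid4b-delta only, and T (6.77) in WT only. Of 9 epithelial surface genes, such as Epcam and Cdh1, H3K27ac lay at 5, 6, 7 and 3, with Prom1 (4.44) in arid4b-delta endoderm only and Krt8 (5.25) and Krt18 (4.16) in WT endoderm only. These lists overlap with genes that stem cells also use.

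Markers of other cell types were read in the same lists, since the cultures may be mixed. Promoter H3K27ac lay at 2 of 6 pluripotency genes in arid4b-delta endoderm, 3 in WT endoderm, 3 in arid4b-delta mesoderm and 2 in WT mesoderm, with Pou5f1 and Sox2 in every list. The shares of all genes with promoter H3K27ac were 26.4%, 26.6%, 31.5% and 29.6% in that order. Promoter H3K27ac lay at 0, 0, 0 and 3 of 9 mesoderm genes, the 3 being Foxc1 (9.76), Twist1 (7.76) and Tbx6 (7.73). It lay at 1, 2, 1 and 2 of 11 extraembryonic endoderm genes and at 0 of 5 fibroblast genes in each list. Nanog had it in WT endoderm and arid4b-delta mesoderm, and Zfp42, Esrrb and Klf4 in no list. Sox2 also had promoter H3K27me3 in both endoderm lists and in WT mesoderm, and not in arid4b-delta mesoderm. The part that a mixture of cells has in the marks at these genes was not tested.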

How the data were processed

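ChIP-seq peak lists of 12 libraries were used as deposited, 1 per mark, lineage and genotype, and the 4 input samples were not used here. Bowtie2, Picard and MACS2 are named with build mm10 in the submitters' processing notes, and versions, controls and thresholds are not given in the sources used here. The deposited lists are of narrow peaks for H3K4me3 and H3K27ac and of broad peaks for H3K27me3, with 1 calling per library. Each deposited list gives the authors' score and fold enrichment, a ratio over control or local background. It also gives the authors' −log10 p-value and −log10 q-value per peak, and the narrow lists give the authors' summit position as another unit. Scores, p-values and summits were not used further, and q-values only ordered peaks of equal fold.

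Peaks were joined to 21887 protein-coding genes of a RefSeq table of GRCm38.p6 on chromosomes 1 to 19, X and Y, by an overlap of at least 1 bp. The table gives gene ends without exons, introns or strand, so strand and starts come from the RefSeq promoter sequences where these matched. Both gene ends counted as promoters, with 1000 bp either side. All counts were made with Python 3.11.15, numpy 2.4.6 and pandas 2.3.3, and the overlap code was tested on simulated data. No test was run, since each group has 1 library.

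The genes, the lists and the measures were chosen with earlier results of these data known. All 9 genes are named. Genes of the other lists are named where a promoter was marked in 1 genotype only, up to 5 per list, mark and lineage, and the nearest genes are the first by distance, that of Cxcr4 being not reported here and Hnf4a, without a promoter peak, having none. Only part of the genes that meet this rule are given in the text. Genes given as examples of a list were picked by name. The alternatives were windows of 500 and 2500 bp, annotated starts, 10 and 50 kb neighbourhoods, lists matched in number of peaks, the 50% of peaks with the highest fold enrichment, and peaks of at least 500 bp. The gene body as promoter, cutting the longer list to its longest peaks, and the alternatives for coverage, for both marks at a promoter and for lineages were chosen after seeing the data.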

Additional observations from a re-analysis of the deposited data

Results flagged for a closer look

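At 3 genes the difference in base pairs covered between genotypes had opposite signs in endoderm and mesoderm, which is why they are listed here. The difference itself was not tested, since each group has 1 library.

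Foxa2 H3K4me3 covered 475 bp fewer in arid4b-delta than in WT in endoderm (a difference of -475 bp, from 2056 bp against 2531 bp) and more in mesoderm (2156 bp, from 2755 bp against 599 bp). Opposite signs for H3K4me3 were found at 3.04% of all genes with a peak in both lineages.

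Cxcr4 H3K27me3 had a difference of -244 bp in endoderm, from 2902 bp in arid4b-delta against 3146 bp in WT, and of 2352 bp in mesoderm, from 3304 bp against 952 bp. For H3K27me3 opposite signs were found at 20.5% of the 6728 genes with a peak in both lineages.

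Foxa3 H3K27ac had a difference of 59 bp in endoderm, from 664 bp in arid4b-delta against 605 bp in WT, and of -774 bp in mesoderm, from 653 bp against 1427 bp. For H3K27ac opposite signs were found at 40.8% of the 11747 genes with a peak in both lineages, and the Foxa3 peaks lie mostly near Irf2bp1.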

How the results depend on the processing

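The counts of genes with promoter peaks, with promoter peaks in 1 genotype or 1 lineage only, with both H3K4me3 and H3K27me3 at a promoter, with neighbourhood peaks, with at least 10000 bp of H3K27me3, and with more H3K4me3 or H3K27me3 covered in 1 genotype or lineage were recomputed, each under several of the alternatives. Of 368 values, 296 stayed within 1.5 times the count reported, 72 moved and 0 reversed. The other counts, such as those of overlapping peaks, of neighbourhoods marked in 1 genotype only, of fewer but longer peaks and of the other gene lists, were not recomputed. Counts below are of the 9 genes. The cause of each move was not tested beyond what the alternative itself does.

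Keeping the 50% of peaks with the highest fold enrichment in a list moved 44 counts, the most of the alternatives. H3K27me3 promoters became 4 in arid4b-delta endoderm, 3 in WT endoderm and 3 in arid4b-delta mesoderm, and neighbourhoods 4, 5 and 3. H3K4me3 promoters in WT mesoderm became 3, and neighbourhoods 5 in arid4b-delta endoderm and 5 in WT mesoderm. Foxa3 H3K27ac in WT mesoderm became 0, in all 3 comparisons that count it. H3K4me3 in 1 genotype only became 2 in arid4b-delta and 1 in WT in endoderm, and 3 in arid4b-delta in mesoderm. H3K27me3 in 1 genotype only became 1 in arid4b-delta endoderm, and 0 in arid4b-delta and 2 in WT in mesoderm. Between lineages, H3K4me3 became 1 in mesoderm only in arid4b-delta and 2 in endoderm only in WT, and H3K27me3 2 in mesoderm only in WT. Both marks at a promoter became 3 in arid4b-delta endoderm, 2 in WT endoderm, 3 in arid4b-delta mesoderm and 2 in WT mesoderm, and at least 10000 bp of H3K27me3 became 2, 2, 2 and 0. Of genes with peaks in both genotypes, more H3K27me3 in arid4b-delta became 2 in endoderm and 3 in mesoderm, and more H3K4me3 in arid4b-delta 3 and 5, with 0 in WT endoderm. With genes without a peak counted at 0 bp, more H3K27me3 became 3 in arid4b-delta endoderm, and 3 in arid4b-delta and 3 in WT in mesoderm. Between lineages, more H3K4me3 in endoderm became 1 in arid4b-delta and 0 in WT, and in mesoderm 4 and 3. More H3K27me3 in endoderm became 1 in arid4b-delta and 4 in WT, and in mesoderm 2 in arid4b-delta.

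In lists matched in number of peaks by fold enrichment, H3K27me3 promoters in arid4b-delta endoderm became 5, and neighbourhoods 5 in arid4b-delta endoderm and 5 in mesoderm. H3K27me3 promoters in arid4b-delta only became 0 in both lineages, and in WT only 1 in each. With genes without a peak counted at 0 bp, more H3K27me3 was then covered in arid4b-delta at 4 genes in endoderm and 5 in mesoderm, and in WT at 4 and 2. At least 10000 bp was covered at 3 genes in arid4b-delta endoderm. When the longer list was cut to its longest peaks instead, 1 count moved, endoderm H3K27me3 in arid4b-delta only becoming 1, with Gata4 lost.

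A window of 500 bp gave 0 for H3K27ac in WT mesoderm, in all 3 comparisons that count it, 1 for mesoderm H3K4me3 and 2 for mesoderm H3K27me3 in arid4b-delta only, 0 for WT H3K4me3 in mesoderm only 1 for WT H3K27me3 in endoderm only and 3 for both marks in WT mesoderm. A window of 2500 bp gave 0 for endoderm H3K4me3 in arid4b-delta only and 0 for WT H3K4me3 in mesoderm only. Peaks of at least 500 bp gave 0 for H3K27ac in WT mesoderm, and 50 kb either side gave 3 for its neighbourhoods and 2 for H3K27me3 covered more in mesoderm in arid4b-delta. The gene body as promoter gave 8 for WT endoderm H3K4me3 and 1 for arid4b-delta endoderm H3K27ac. Annotated starts and 10 kb either side moved no count. No paired analysis was possible because each group has 1 library, and leaving out a replicate was not possible for the same reason.

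A missing peak is a call below the authors' threshold and not an absence of the mark.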
